A study of Rattus norvegicus with 6 samples.

Results

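Thbs1, Ccn1, Ccn2, Tnfrsf12a, Ankrd1 and Amotl2 are genes whose transcription is known to respond to mechanical tension, and they are described here in rat cortical astrocytes grown as a tissue-engineered rostral migratory stream (TE-RMS) and in planar culture. The TE-RMS is a bundle of aligned astrocytes that forms inside a hydrogel microchannel lined with collagen. Members were selected on measured values, as genes that lay far lower in TE-RMS than in planar astrocytes, and were found through the identifiers that the supplementary list of the study pairs with these names. All 6 were found among the 23940 rows of the count table, and all 6 were among the 16331 genes that had at least 10 counts in total and were tested. Since the difference between TE-RMS and planar astrocytes chose these genes, their values in it are given as a description. Whether a fit called them lower is no test of them.

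The astrocytes came from the cortex of Sprague-Dawley pups of either sex at postnatal day 0-1 and were used at passage 4, without any transgene or drug. One TE-RMS library and one planar library were made in each of 3 runs, here called the July, September and October runs after their labels, and the methods treat the libraries of 1 run as a pair. Both conditions were kept in the same TE-RMS medium for 4 days, the planar cells on top of polymerized collagen in wells. Each TE-RMS library pooled many constructs made on sequential days from sister flasks, while planar wells were plated only on the last of these days. The constructs had been picked for tight bundling and stored in RNAlater, whereas the planar wells were not stored in this way. Culture format, selection, storage, pooling, flask and fabrication day thus cannot be told apart. In bulk RNA, fewer cells of a type and less RNA per cell cannot be told apart either. The process was repeated for each run.

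Total counts were 70682593 (July), 70478784 (September) and 56483332 (October) for planar and 54601354, 77277336 and 64537115 for TE-RMS libraries in the same order of runs. Levels are given as CPM, counts scaled to the size of each library after correction for its makeup by the trimmed mean of M-values (TMM). The October TE-RMS library stood apart. It held counts for 13755 genes, against 14938 and 15262 in the TE-RMS libraries of July and September, and 118 of the 11462 genes with at least 100 counts in its planar partner were at 0 in it. The same count was 8 of 11396 genes in July and 5 of 11574 genes in September. In the other direction, 50 of the 11118 genes with at least 100 counts in the October TE-RMS library were at 0 in its planar partner. That count was 5 of 11074 genes in July and 2 of 11163 genes in September. Fitted values that moved by over 1.5 times when a run was left out are also given without it.

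These genes belong to a shared system by which cells read tension. When cells spread and pull on a stiff support, the coactivators YAP and TAZ enter the nucleus and act through TEAD factors, while actin polymerization frees the MRTF coactivators, which act through serum response factor (SRF). Several of the genes are known to respond to both routes. Thbs1 encodes thrombospondin-1, and Ccn1 and Ccn2 encode CYR61 and CTGF, matricellular proteins that are secreted into the matrix and bind integrins without forming its fibres. Tnfrsf12a encodes Fn14, the receptor for the cytokine TWEAK. Ankrd1 encodes a nuclear and sarcomeric ankyrin repeat protein, and Amotl2 encodes a junctional protein of the angiomotin family that binds YAP and holds it out of the nucleus.

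The 250 bases before the RefSeq start site are shown for the 5 genes that had an entry in the RefSeq promoter table of build GRCr8, to show where the core TEAD motif stands in them. Genes were picked as responsive to YAP and SRF, and 4 of the 6 are on the list of conserved YAP/TAZ-TEAD targets used below, so motif content is tied to the choice and is given as a description. Ankrd1 is named only. Sequences are written 5′ to 3′ on the strand of the gene, and capitals mark the TEAD hexamer, GGAATG on that strand or CATTCC where it lies on the other strand. They cover chr1:22624615-22624864 on the minus strand for Ccn2, chr2:237225690-237225939 on the minus strand for Ccn1, chr3:125510000-125510249 on the plus strand for Thbs1, chr8:112182376-112182625 on the plus strand for Amotl2 and chr10:13213649-13213898 on the minus strand for Tnfrsf12a.
Ccn2: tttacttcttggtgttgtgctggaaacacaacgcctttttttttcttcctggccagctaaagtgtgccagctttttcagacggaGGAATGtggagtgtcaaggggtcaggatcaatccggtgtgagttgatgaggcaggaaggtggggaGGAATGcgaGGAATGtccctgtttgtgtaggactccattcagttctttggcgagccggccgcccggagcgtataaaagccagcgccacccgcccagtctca
Ccn1: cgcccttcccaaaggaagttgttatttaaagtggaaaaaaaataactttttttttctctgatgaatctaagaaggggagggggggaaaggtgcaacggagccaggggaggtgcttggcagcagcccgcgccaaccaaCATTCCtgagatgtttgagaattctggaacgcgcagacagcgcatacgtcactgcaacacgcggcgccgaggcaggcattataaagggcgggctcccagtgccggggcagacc
Thbs1: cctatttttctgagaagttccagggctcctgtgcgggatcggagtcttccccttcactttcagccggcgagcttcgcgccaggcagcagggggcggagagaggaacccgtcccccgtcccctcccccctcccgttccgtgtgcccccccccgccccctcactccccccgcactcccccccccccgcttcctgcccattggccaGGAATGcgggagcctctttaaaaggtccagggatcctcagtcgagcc
Amotl2: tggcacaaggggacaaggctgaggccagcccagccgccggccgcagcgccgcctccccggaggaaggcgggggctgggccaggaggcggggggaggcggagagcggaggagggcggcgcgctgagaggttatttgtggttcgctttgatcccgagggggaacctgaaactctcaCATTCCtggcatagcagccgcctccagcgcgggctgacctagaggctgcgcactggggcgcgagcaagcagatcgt
Tnfrsf12a: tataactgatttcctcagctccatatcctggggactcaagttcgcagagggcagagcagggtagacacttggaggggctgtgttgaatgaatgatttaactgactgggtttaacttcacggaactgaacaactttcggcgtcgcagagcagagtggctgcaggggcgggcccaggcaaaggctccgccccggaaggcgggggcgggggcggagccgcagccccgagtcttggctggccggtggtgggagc

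The hexamer was found in 4 of these 5 windows. Ccn2 held 3 copies on its own strand, which began 166, 101 and 92 bases before the start site, and 27 of all 33469 promoters of the same length (0.0807%) held 3 or more, a number set by Ccn2 itself. Thbs1 held 1 copy that began 47 bases before the start site on its own strand, and Ccn1 and Amotl2 each held 1 on the other strand, at 113 and 76 bases. At least 1 copy was present in 12.1% of all promoters, in 89 of the 592 promoters of named genes called lower in TE-RMS (15.03%) and in 60 of the 591 of named genes called higher (10.2%). It was also in 6 of 15 promoters of the named SRF/MRTF targets (40%), but in 1 of 4 of the other named and 2 of 12 of the other listed YAP/TAZ-TEAD targets (25.0% and 16.7%). A TATA motif, searched as TATAAA on both strands, began 34 bases before the start site of Ccn1 and 31 bases before that of Ccn2, and 12.9% of all promoters held one. The CArG box bound by SRF, present in 1.497% of all promoters, and the AP-1 motif TGANTCA, present in 6.34%, were each searched on both strands and matched in none of the 5 windows. The CArG box was matched in 4 of 15 promoters of the named SRF/MRTF targets (26.7%). Its share was 2.365% among named genes called lower and 0.677% among those called higher. A match says only that these letters stand in the window, and binding was not measured.

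**Figure D1:**
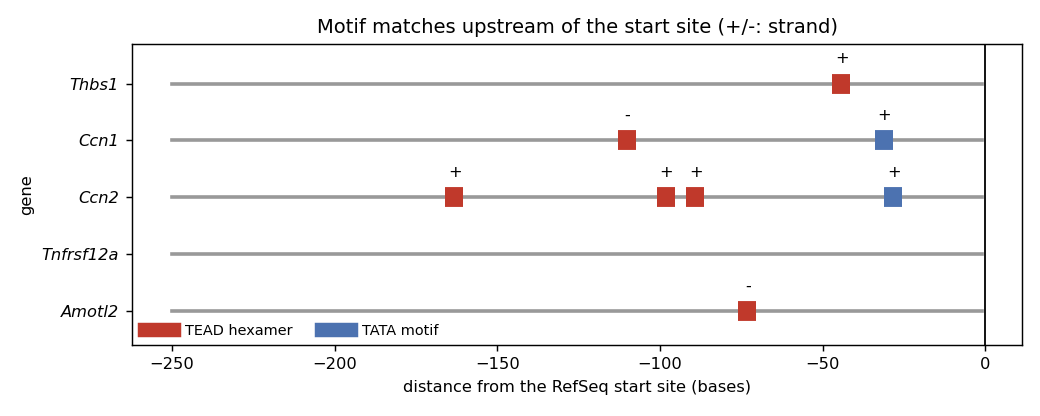
Positions of TEAD hexamer (red) and TATA (blue) matches in the 250 bases before the RefSeq start site of each gene, with the distance in bases on the x axis and the strand of each match as + or -. Ccn2 holds 3 hexamers, Thbs1, Ccn1 and Amotl2 hold 1 each, and Tnfrsf12a holds none.

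Each of the 6 genes was lower in all 3 TE-RMS libraries than in every planar library. Over all tested genes, 16.1% separated in this direction, and 9.28% were called lower and 9.36% higher in TE-RMS at an adjusted p under 0.05 (quasi-likelihood F test in edgeR, blocked by run, adjusted after Benjamini and Hochberg). As these genes were chosen for this difference, nothing is read from the comparison with that background. Together they took 0.408%, 0.483% and 1.02% of the planar counts in July, September and October, and 0.0582%, 0.0728% and 0.113% of the TE-RMS counts. Most of this was Ccn2, with 0.272%, 0.368% and 0.721% of the planar and 0.0450%, 0.0644% and 0.103% of the TE-RMS counts.

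Thbs1 (ENSRNOG00000045829; mRatBN7.2, chr3:105056292-105071440) was at 1133 CPM in the July, 903 CPM in the September and 2566 CPM in the October planar library and at 94.1, 58.4 and 78.3 CPM in their TE-RMS partners. The planar level was by far highest in October, while the 3 TE-RMS libraries stayed close together. Its product binds CD47, CD36 and integrins, activates latent TGF-beta and is a known astrocyte signal for synapse formation. Mean levels were 1534 ± 901 CPM (SD, n = 3) for planar against 77.0 ± 17.9 CPM (SD, n = 3) for TE-RMS astrocytes, a fitted log2 fold change of -4.19 (SE 0.27). The fold within a run was 12.03 in July, 15.5 in September and 32.8 in October, with 95% exact counting intervals of 11.7 to 12.4, 14.99 to 15.96 and 31.8 to 33.7. These intervals cover counting error only. None of the 3 overlapped, so the folds of all runs differed by more than counting error, with October the highest.

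Ccn1 (ENSRNOG00000014350; mRatBN7.2, chr2:234562408-234565484) was at 54.5, 36.3 and 51.6 CPM in the planar libraries, in the same order of runs, and at 3.99, 2.38 and 4.73 CPM in their TE-RMS partners. September was the lowest run in both conditions. Mean levels were 47.5 ± 9.79 CPM (SD, n = 3) and 3.70 ± 1.20 CPM (SD, n = 3), with a fitted log2 fold change of -3.72 (SE 0.24). The fold was 13.7 in July (11.96 to 15.7), 15.3 in September (13.1 to 17.9) and 10.9 in October (9.70 to 12.3), so that the interval of July overlapped both others while those of September and October did not meet.

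Ccn2 (ENSRNOG00000015036; mRatBN7.2, chr1:20802199-20805734) was at 2843, 3584 and 6737 CPM across the planar runs and at 434, 692 and 1047 CPM across the TE-RMS runs. In both conditions July was the lowest and October the highest run, by 2.37-fold between the extremes in planar and 2.41-fold in TE-RMS astrocytes. CTGF is a known target of TGF-beta as well as of YAP. Mean levels were 4388 ± 2068 CPM (SD, n = 3) and 724 ± 308 CPM (SD, n = 3), with a fitted log2 fold change of -2.59 (SE 0.18). Its fold varied least of the 6, at 6.56 in July (6.47 to 6.64), 5.18 in September (5.13 to 5.23) and 6.43 in October (6.38 to 6.49).

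Tnfrsf12a (ENSRNOG00000003546; mRatBN7.2, chr10:12689890-12709045) was at 200.6, 168 and 116 CPM across the planar runs and at 19.5, 26.7 and 14.9 CPM across the TE-RMS runs. October was the lowest run in both conditions, unlike Ccn2. Mean levels were 162 ± 42.7 CPM (SD, n = 3) and 20.4 ± 5.96 CPM (SD, n = 3), with a fitted log2 fold change of -2.99 (SE 0.19). The fold was 10.3 in July (9.68 to 10.95), 6.30 in September (6.001 to 6.61) and 7.79 in October (7.28 to 8.34), and none of the 3 counting intervals overlapped.

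Ankrd1 (ENSRNOG00000018598; mRatBN7.2, chr1:233815851-233834919) was counted 189, 240 and 516 times across the planar runs and 49, 11 and 0 times across the TE-RMS runs. This was 2.79, 3.32 and 8.54 CPM in planar and 0.864, 0.153 and 0 CPM in TE-RMS astrocytes. The highest planar and the lowest TE-RMS library were thus both from October, the TE-RMS library in which other genes were also at 0. Mean levels were 4.88 ± 3.18 CPM (SD, n = 3) and 0.339 ± 0.461 CPM (SD, n = 3). The fold was 3.23 in July (2.35 to 4.52), 21.7 in September (11.9 to 44.0) and at least 181 in October, set against a floor of 3 counts (0.0473 CPM). The exact 95% counting interval of the October ratio began lower, at 146. The fitted log2 fold change of -4.59 (SE 1.33) depends on the prior count, and was -2.95 without the October run and -6.47 without the July run. The fit without October did not call Ankrd1 lower, which describes that fit and is no test of the gene.

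Amotl2 (ENSRNOG00000008487; mRatBN7.2, chr8:103302992-103318910) was at 25.3, 10.1 and 39.7 CPM across the planar runs and at 8.01, 2.34 and 2.43 CPM across the TE-RMS runs. The lowest planar library, September, lay just above the highest TE-RMS library, July, so the groups were closest for this gene. Mean levels were 25.0 ± 14.8 CPM (SD, n = 3) and 4.26 ± 3.25 CPM (SD, n = 3), with a fitted log2 fold change of -2.57 (SE 0.42). The fold was 3.16 in July (2.85 to 3.51), 4.31 in September (3.64 to 5.13) and 16.4 in October (13.9 to 19.4). The fitted value was -1.85 without the October run and -3.07 without the July run.

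**Figure D2:**
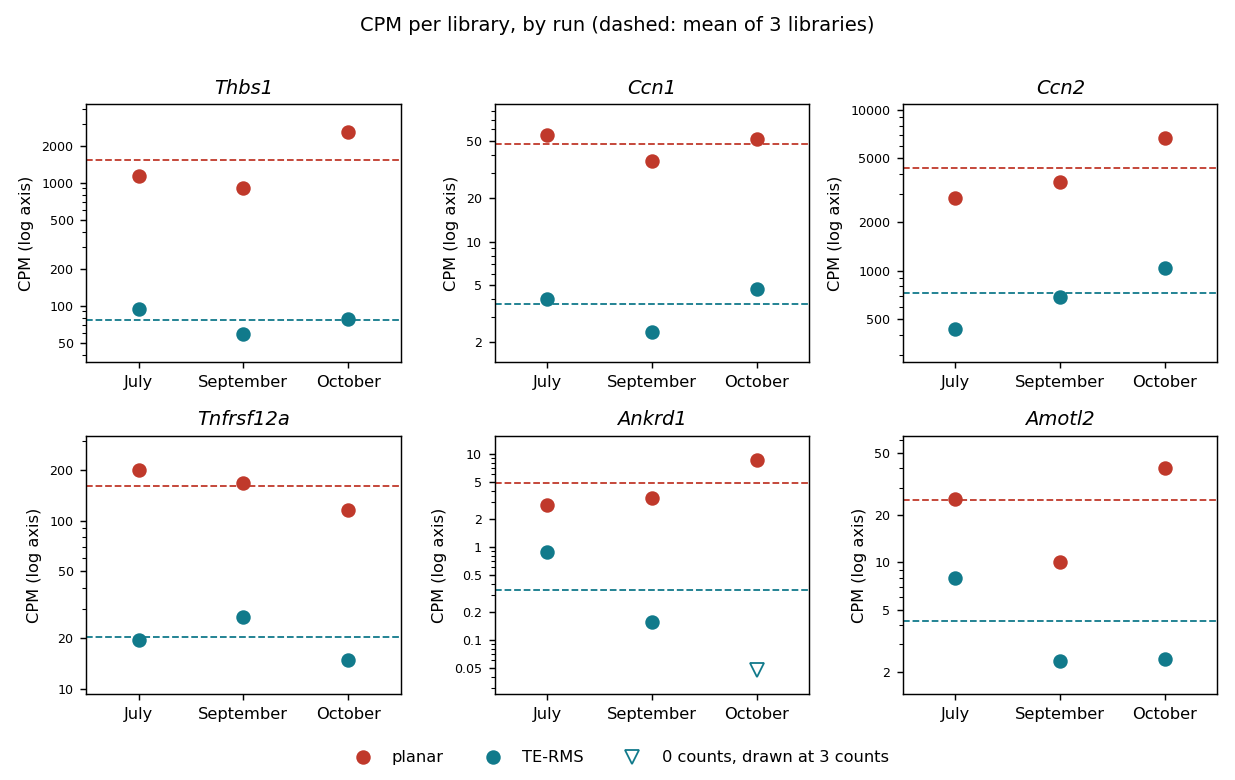
CPM of each gene on a log axis in the planar (red) and TE-RMS (teal) library of each run, with the mean of the 3 libraries as a dashed line and the open triangle for 0 counts drawn at the floor of 3 counts. Every teal point lies below every red point of the same gene, with the smallest gap in Amotl2, between 10.1 and 8.01 CPM.

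Folds differed little between runs for Ccn2 and Ccn1, and were largest in October for Thbs1, Ankrd1 and Amotl2. The SD of the 3 log2 ratios was 0.19 for Ccn2, 0.24 for Ccn1 and 0.36 for Tnfrsf12a, against a median of 0.53 over all tested genes and 0.35 over the 1503 genes of smallest p-value that carry a name here. It was 0.75 for Thbs1, 1.26 for Amotl2 and 3.26 for Ankrd1. Of all tested genes 61.2%, 74.9% and 97.6% varied less than these, and of the named genes 83.2%, 94.8% and 99.7%. Tnfrsf12a lay near the middle of the named genes, of which 51.5% varied less. October also gave the widest spread over all genes, with an SD across genes of 1.83 in the log2 ratio against 1.24 in July and 1.30 in September. Of the 1516 genes called lower, 689 had their lowest ratio in October, 526 in September and 301 in July. The part of the October library in the large October folds was not tested.

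**Figure D3:**
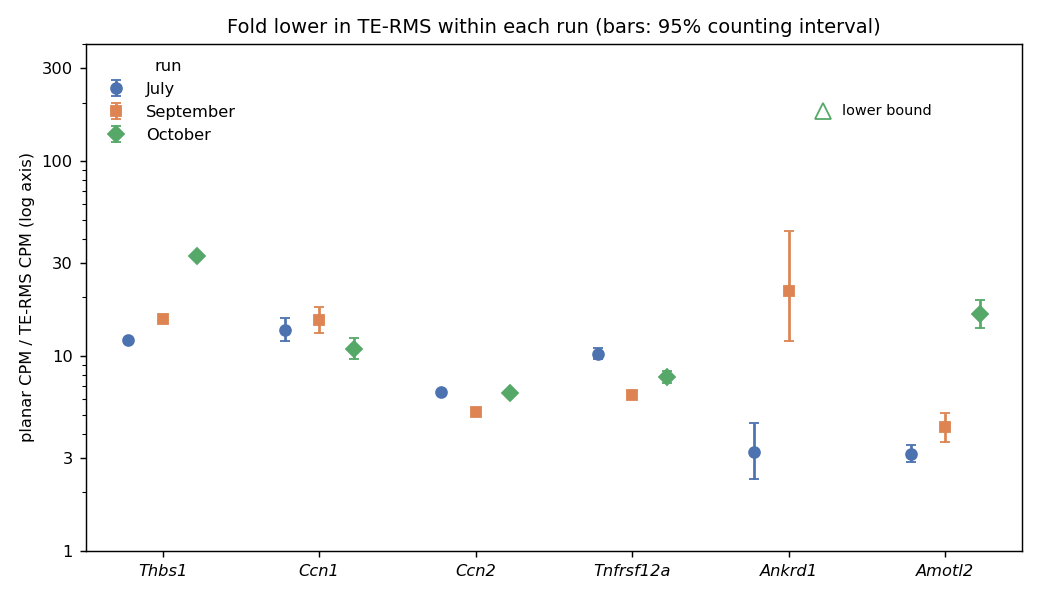
Planar CPM divided by TE-RMS CPM of each gene within the July, September and October runs on a log axis, with 95% exact counting intervals as bars. Ccn2 stays between 5.18 and 6.56, whereas Thbs1 and Amotl2 reach 32.8 and 16.4 in October, and the triangle sets Ankrd1 in October against 3 counts.

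Differences between runs were not used in the choice. A shift between runs shared by both conditions was tested in the fit over all genes, with the condition in the model. The test was edgeR's quasi-likelihood test of both run terms, with Benjamini-Hochberg adjustment over all 16331 genes. Runs that moved opposite ways in planar and TE-RMS libraries largely cancel in it, so a high adjusted p does not mean that the runs were alike. Between runs 525 genes were called, 3.21% of those tested. Ccn2 was called with F = 17.9 and an adjusted p of 0.0146, its October level being the highest in planar and in TE-RMS astrocytes. The call was lost without the October run, with an edgeR adjusted p of 0.289. The adjusted p by the same edgeR test was 0.182 for Thbs1, 0.190 for Tnfrsf12a and for Amotl2, 0.261 for Ccn1 and 0.779 for Ankrd1. A choice of genes by small p-values favours genes of small spread, which also enters this test. Relative to the mean of its condition, Ccn2 lay at -0.53 in July and 0.72 in October in planar and at -0.65 and 0.62 in TE-RMS libraries on the log2 scale. Tnfrsf12a lay at -0.44 in planar and -0.41 in TE-RMS in October, below its mean in both conditions. For Ankrd1 the same run lay at 0.99 in planar and at -2.49 in TE-RMS, and for Amotl2 at 0.88 and -0.55, so that these genes went opposite ways in the October pair.

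**Figure D4:**
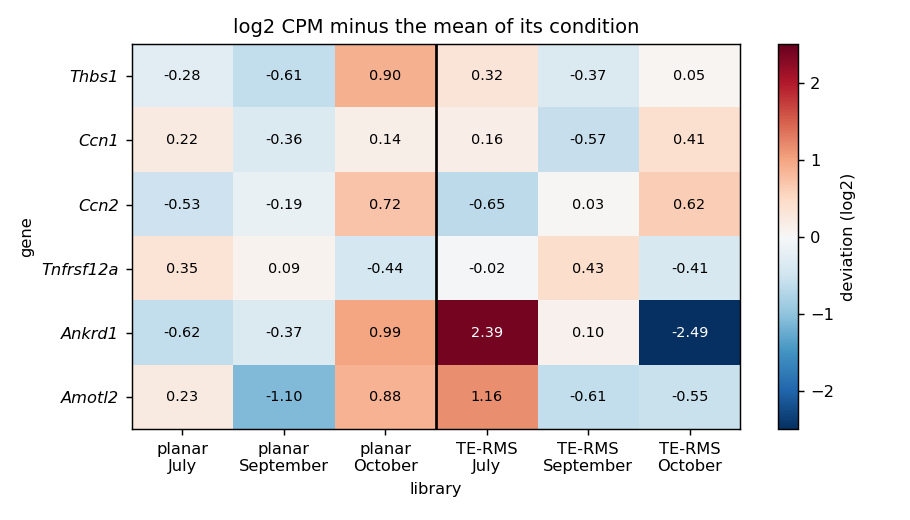
Log2 CPM of each gene in each library minus the mean of the 3 libraries of its condition, from blue (below) to red (above), with planar libraries left and TE-RMS libraries right of the black line. Ccn2 shows the same order of runs on both sides, while Ankrd1 and Amotl2 are above their mean in planar and below it in TE-RMS libraries in October.

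Across the 6 libraries, Pearson correlations of log2 CPM between the genes ran from 0.69 for Ccn2 with Ankrd1 to 0.98 for Thbs1 with Ccn1, and all of them share the difference between conditions for which the genes were chosen. After removal of each condition's mean they ran from -0.73 for Thbs1 with Tnfrsf12a to 0.79 for Thbs1 with Amotl2. Tnfrsf12a moved against Thbs1, Ccn1 (-0.62) and Ccn2 (-0.71) within conditions. These 6 points share 3 runs and carry no p.

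Other genes of the same routes could be followed only where the supplementary list pairs an identifier with a name. The 1503 names used here are those with the smallest p-values in that list, and of them 50.0% were called lower and 49.7% higher, so that nearly every named gene was called by its choice and only the direction and size of a value are described. The median log2 fold change was -0.76 over the named genes and -0.12 over all tested genes.

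Of the 22 conserved YAP/TAZ-TEAD targets, 10 had a name, 4 of them among the genes described above. Excluding these 4, 4 targets were lower and 2 were higher, with a median log2 fold change of -1.22. Arhgef17, encoding a guanine nucleotide exchange factor, was lower by a log2 fold change of -2.74 (SE 0.39), Crim1 by -1.77 (SE 0.37), the kinase gene Nuak2 by -1.38 (SE 0.28) and Ccdc80 by -1.05 (SE 0.23). F3, which encodes tissue factor, was higher, at 102, 267 and 94.2 CPM in planar and 168, 604 and 278 CPM in TE-RMS libraries, with a log2 fold change of 1.15 (SE 0.19). The groups of F3, Nuak2 and Ccdc80 overlapped across runs, although in each run the TE-RMS library was above its planar partner for F3 and below it for Nuak2 and Ccdc80. Tgfb2, a TGF-beta ligand, was also higher by 0.91 (SE 0.20). Of all 10 targets, which include the 4 described genes, 8 were called lower and 2 higher with the run as a block. Without the block these numbers were 5 and 0, and such counts describe the fits only. Leaving out the October run gave 6 lower and 2 higher, with Ankrd1 and Ccdc80 no longer called.

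All 18 named genes among the 23 SRF/MRTF targets were called lower, with a median log2 fold change of -1.80, and 14 were called lower without the block. Acta2, the smooth muscle actin gene, was at 204, 43.8 and 67.0 CPM in planar and at 1.22, 2.39 and 0.0473 CPM in TE-RMS libraries, with a log2 fold change of -6.64 (SE 0.75). The October TE-RMS value is 3 counts, and the fitted value was -5.68 without the October run and -8.19 without the September run. Tagln, an actin-binding gene of contractile cells, was at 5917, 615 and 1316 CPM and at 391, 47.4 and 58.3 CPM. Its log2 fold change was -4.04 (SE 0.22), and its highest TE-RMS library, July, still lay below its lowest planar library, September. Cnn1, encoding calponin, was lower by a log2 fold change of -3.89 (SE 0.30) and Myl9, a myosin light chain gene, by -2.98 (SE 0.21). Srf itself, at 18.7, 9.66 and 13.9 CPM in planar and 2.29, 1.25 and 2.46 CPM in TE-RMS libraries, had a log2 fold change of -2.82 (SE 0.35). The cytoplasmic actin genes Actb and Actg1 had the smallest values, -0.99 (SE 0.19) and -0.77 (SE 0.17), and reads that similar actin transcripts share were divided by probability, which leaves their split uncertain. Both lost their call without the September run, which left 16 of the 18 called, and the groups of Actb, Actg1 and Tpm2 overlapped across runs. The run test called 11 of the 18 genes, and 178 of all 1503 named genes (11.8%).

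Among the Hippo pathway components 5 of 22 had a name. The list holds restraints of YAP, but also YAP, TAZ, the TEAD factors and TEAD cofactors. Wwc1, encoding the scaffold KIBRA, was lower by a log2 fold change of -3.49 (SE 0.63), or -2.54 without the October and -4.45 without the July run. Vgll3, a TEAD cofactor, was lower by -1.31 (SE 0.22). Stk3, encoding the kinase MST2, was higher by 0.86 (SE 0.17), and Mob1b, an activator of the LATS kinases, by 1.34 (SE 0.26). With Amotl2 this made 3 lower and 2 higher. The genes of YAP, TAZ and the TEAD factors had no name here and were not analysed by name.

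Of the ligand and receptor families, Thbs2 was the only other named thrombospondin gene. It was at 69.0, 94.8 and 206 CPM in planar and at 16.6, 15.1 and 9.12 CPM in TE-RMS libraries, with a log2 fold change of -3.04 (SE 0.37), or -2.32 without the October run. The CCN family had no named gene besides Ccn1 and Ccn2 (2 of 6), and the TWEAK pathway had none besides Tnfrsf12a (1 of 12). Among 12 receptors that bind CCN proteins or thrombospondins 3 had a name, and all 3 were lower. They were the integrin genes Itgb5 (-1.57, SE 0.17) and Itga5 (-1.24, SE 0.18) and the syndecan gene Sdc4 (-0.89, SE 0.16).

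TGF-beta induces several of the genes described, and 9 of the 14 genes of its pathway and targets had a name, 8 lower and 1 higher, with a median log2 fold change of -1.75. Pmepa1, a feedback inhibitor of the pathway, was at 361, 91.3 and 368 CPM in planar and at 14.7, 8.51 and 18.2 CPM in TE-RMS libraries, and its log2 fold change was -4.13 (SE 0.24). Ltbp2, a latent TGF-beta binding protein gene, was lower by -2.87 (SE 0.21). The ligand genes went both ways, Tgfb1 lower by -2.02 (SE 0.25) and Tgfb3 by -1.75 (SE 0.30), with Tgfb2 higher. Of 20 immediate early genes, which respond within minutes to serum or stress, 4 had a name and all 4 were lower. The largest was Junb at -2.87 (SE 0.23), followed by Btg2, Ier2 and Jun at -1.75, -1.31 and -1.15, and the groups of Jun overlapped.

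**Figure D5:**
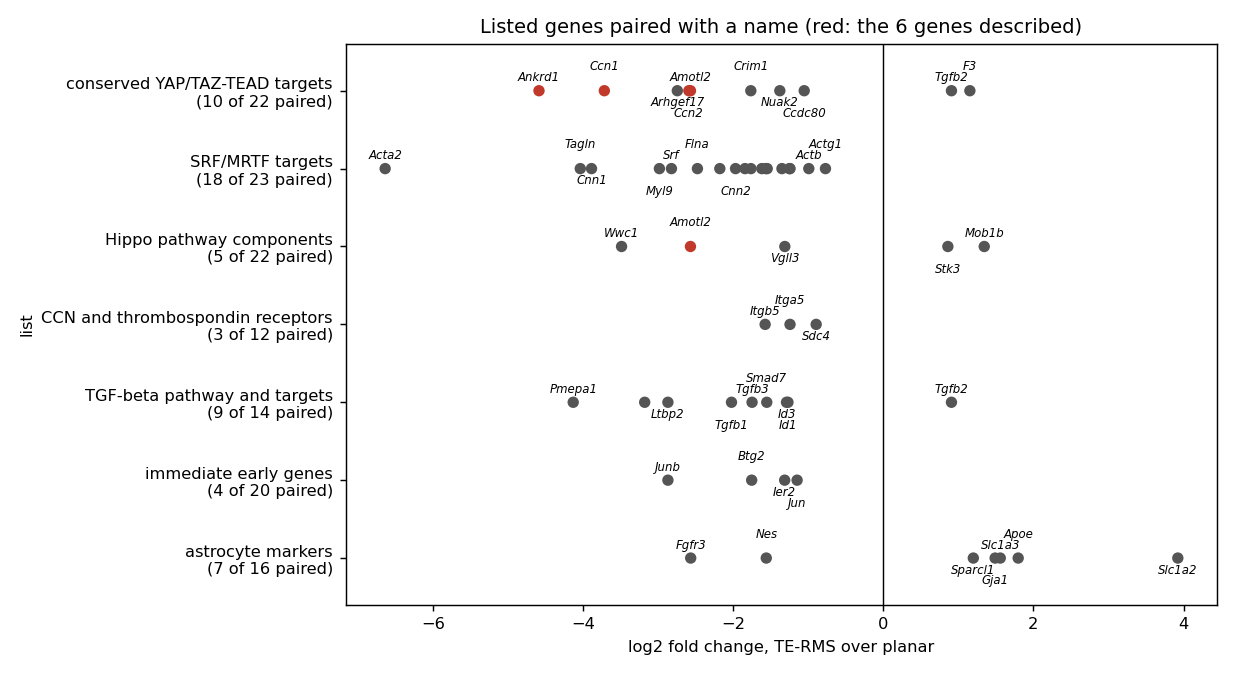
Fitted log2 fold change, TE-RMS over planar, of each listed gene that had a name, by list, with the described genes in red and some points left unlabelled. All SRF/MRTF targets lie left of 0, whereas the YAP/TAZ-TEAD, Hippo and TGF-beta lists each hold genes on both sides.

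Markers of cell types were followed in the same libraries, since the described genes are also expressed by fibroblasts and mural cells. Of 16 astrocyte markers 7 had a name, and their summed level was 2689, 1876 and 3111 CPM in planar and 8891, 5250 and 9677 CPM in TE-RMS libraries. Apoe was the most abundant, and Apoe, Gja1, Slc1a2, Slc1a3 and Sparcl1 were higher, while Fgfr3 and Nes were lower. The 3 named fibroblast markers of 6 (Col1a1, Col1a2 and Col3a1) summed to 646, 395 and 634 CPM in planar and 180, 144 and 229 CPM in TE-RMS libraries, Col1a2 being the most abundant, and all 3 were lower by log2 fold changes of -1.69, -1.50 and -1.78. The only named mural marker of 7 was Acta2, given above. The only named microglial marker of 12, Cd68, was at 1.30, 15.6 and 0.778 CPM in planar and 8.69, 85.4 and 3.75 CPM in TE-RMS libraries, highest in both September libraries. The 2 named neuronal markers of 7, Snap25 and Map2, summed to 12.7, 7.63 and 5.94 CPM in planar and 34.9, 91.3 and 18.1 CPM in TE-RMS libraries, Snap25 being the more abundant in both September libraries and Map2 in the other 4. Of 8 oligodendrocyte lineage markers, Cspg4 was lower by -3.41 (SE 0.83), with fitted values of -2.47 without the October, -4.00 without the July and -4.02 without the September run, and no endothelial marker of 5 had a name. None of the named markers was at 0 in any library, and the groups of Sparcl1, Cd68, Snap25 and Col3a1 overlapped across runs. The lower fibroblast and mural levels moved with the described genes, and their part in the result was not tested.

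The genes most like each described gene were sought among the 1497 other named genes by the Pearson correlation of log2 CPM over the 6 libraries. With so many candidates and so few libraries the best values were all high, from 0.991 to 0.999, and they describe these libraries only. For Ccn2 they were Ube2q1, Cacnb3 and Slc30a1, in which July was likewise the lowest and October the highest run in both conditions. Slc30a1, encoding a zinc exporter, was at 29.2, 29.5 and 48.5 CPM in planar and at 5.17, 8.43 and 12.4 CPM in TE-RMS libraries. For Ccn1 they included Ier5l and Gnl1, and they were for Thbs1 Mgat4b, Oaz2 and Vasn, and for Tnfrsf12a Bcam, Hdgf and Myom3. For Amotl2 they were Ptpn11, Limk2 and Ap4b1, and Limk2 was at 0.992 CPM in the October TE-RMS library and at 24.2 CPM in its planar partner. For Ankrd1 they were Bcl9l, Prrc2a and Miga2, and Bcl9l was at 4.37, 1.13 and 0.425 CPM across the TE-RMS runs, the same order as Ankrd1. Over all 6 genes the mean correlation was highest for Ltbp2, Oaz2, Cdca3, Pbx2 and Klf16, each at 0.94. Ltbp2 was at 141, 114 and 176 CPM in planar and at 25.1, 17.4 and 16.5 CPM in TE-RMS libraries.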

How the data were processed

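RNA was prepared with a non-stranded SMART-Seq kit, so antisense overlaps are not resolved. The authors used fastp for trimming and Salmon for quantification (Ensembl v111, mRatBN7.2), then combined transcripts into genes with tximeta and annotated these with biomaRt. The estimated counts per gene were deposited without normalization, as whole numbers, and needed no rounding. The fit in edgeR 4.0.16 (R 4.3.3) took genes of at least 10 counts over all libraries, scaled by TMM and blocked by run, with a threshold of 0.05 after Benjamini-Hochberg adjustment. Fitted log2 fold changes used a prior count of 0.125, and ratios within runs and correlations used log2 CPM with a prior count of 2. An SE is the size of the fitted log2 value over the root of its F statistic. DESeq2 1.42.0, limma 3.58.1 (voom), other scalings and filters, no block, a prior count of 2, Spearman correlation and each run left out were alternatives. Same-run libraries deviated together (r of 0.27, 0.24 and 0.18 across genes, against -0.16 to -0.07 between runs), and the methods pair them. Libraries of the same condition differed by far more than counting error (chi-square per degree of freedom of 284 to 398). In the fit blocked by run, p-values for the condition set the difference against how far it varied between the pairs. The run test used the same residual spread.

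The members and lists were chosen with earlier results of these data known. Names come from the supplementary list of the study, held here only for its genes of smallest p-value. Genes named in the text are the members, the listed genes with a name, and for each member the 3 named genes with the highest Pearson correlation, with the 5 highest by their mean. Some items that this rule names are not reported here. Promoters are from RefSeq (GRCr8), matched by symbol for 5 of 6 members.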

Additional observations from a re-analysis of the deposited data

How the results depend on the processing

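All 6 genes stayed lower in TE-RMS under each of the 11 alternatives, with log2 fold changes of -4.49 to -3.74 for Thbs1, -3.82 to -3.61 for Ccn1, -2.70 to -2.51 for Ccn2, -3.16 to -2.81 for Tnfrsf12a, -6.47 to -2.95 for Ankrd1 and -3.07 to -1.85 for Amotl2. Ankrd1 was not called with no replicate block, with at least 10 counts in at least 3 libraries, or without the October run. Calls of the 6 genes describe the fits only and are no test, since this difference chose the genes. With no replicate block 1441 genes were called between TE-RMS and planar (733 lower, 708 higher) in place of 3044. Of the YAP/TAZ-TEAD targets, with the described genes counted in, 5 were called lower in place of 8. Between runs DESeq2 called 1245 genes and the stricter filter 224, in place of 525. In the run test the adjusted p of Ccn2 ran from 1.14e-07 by DESeq2 to 0.289 by edgeR without October. Thbs1 passed by DESeq2 (0.0335) and by edgeR without July (0.00159), Tnfrsf12a by edgeR without July (0.0330) and Amotl2 by edgeR without October (0.0387). The cause was not tested. The median log2 fold change of all tested genes ran from -0.16 with upper-quartile scaling to -0.04 without October, and the share of lower among called genes from 45.9% to 54.7%. Of the 18 genes most like the members, 13 were also among the highest by Spearman correlation, but 8 to 92 genes tied for the highest value of each member, so this overlap says little. Ankrd1 was at 49 counts or fewer in each TE-RMS library, so its folds rest on few counts.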
